A study of Mus musculus with 9 samples.

Results

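Transcripts of 10 ligand genes of the TGF-beta superfamily were examined in the atrioventricular (AV) node of the mouse: Tgfb1, Tgfb2, Tgfb3, Inhba, Inhbb, Gdf15, Bmp2, Bmp4, Bmp6 and Bmp10. They were picked by symbol from the 34198 gene symbols of the expression table, with earlier results of these data known, and all 10 were found there. The node, the tissue that delays the impulse between atria and ventricles, had been microdissected from C57BL/6J mice, and total RNA had been made into directional libraries. Cd11bDTR mice depleted of macrophages gave 3 libraries (7, 8 and 9), Cx3cr1 Cx43-/- mice gave 3 (4, 5 and 6) and control mice gave 3 (1, 2 and 3). Libraries of a group are described as biological replicates. Whether nodes of several mice were pooled, the age of the mice, the toxin schedule, and whether control mice carried a Cre or received toxin are not given in the sources used here.

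Cd11bDTR mice carry a receptor for diphtheria toxin under the Cd11b promoter, which is active in myeloid cells other than macrophages too. The Cx3cr1 Cx43-/- genotype concerns connexin 43 (gene Gja1) in cells that express the chemokine receptor Cx3cr1, so Gja1 of a whole node, which other cells express as well, checks little of that deletion. Gja1 stood at 89.9, 56.8 and 68.3 CPM (read counts scaled to a fixed library total) in Cd11bDTR libraries, at 179, 229 and 250 CPM in Cx3cr1 Cx43-/- libraries and at 246, 163 and 211 CPM in control libraries. Cx3cr1 Cx43-/- and control libraries overlapped, and every Cd11bDTR library was below both. Cx3cr1 averaged 2.07 ± 0.778 CPM in Cd11bDTR, 3.91 ± 1.71 CPM in Cx3cr1 Cx43-/- and 5.56 ± 1.75 CPM in control libraries (SD, n = 3 each). Itgam, which encodes CD11b, averaged 6.47 ± 3.77 CPM in Cd11bDTR, 8.98 ± 2.08 CPM in Cx3cr1 Cx43-/- and 5.31 ± 3.65 CPM in control libraries. Mouse Hbegf averaged 33.5 ± 18.2 CPM in Cd11bDTR, 11.7 ± 1.61 CPM in Cx3cr1 Cx43-/- and 12.7 ± 2.06 CPM in control libraries.

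Ligands of this superfamily are secreted as dimers. TGF-betas and activins bind receptors that phosphorylate Smad2 and Smad3, while BMPs act mainly through Smad1, Smad5 and Smad9. TGF-betas leave the cell bound to a latency peptide and have to be released, activins and BMPs are held in check by secreted antagonists, and in the heart these ligands are known for their roles in valve and cushion formation, conduction tissue patterning and scarring.

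A level of 1 CPM corresponded to 52.1 to 64.9 reads over the 9 libraries, as recovered from the value of a single read (0.0154 to 0.0192 CPM). The listed genes took 44.0%, 37.7% and 28.3% of the CPM denominator in Cd11bDTR libraries 7, 8 and 9, 46.8% to 47.9% in Cx3cr1 Cx43-/- libraries and 42.8% to 48.7% in control libraries. Summed CPM of 9 resident macrophage genes was 55.5 to 64.2 in Cd11bDTR, 375 to 501 in Cx3cr1 Cx43-/- and 239 to 384 in control libraries. The sum of 10 AV node markers was 63.4 to 108 CPM in Cd11bDTR, 196 to 247 CPM in Cx3cr1 Cx43-/- and 226 to 243 CPM in control libraries. Cacna1g was its largest part, averaging 24.5 CPM in Cd11bDTR, 89.2 CPM in Cx3cr1 Cx43-/- and 107 CPM in control libraries. Shox2 alone of these markers had a higher mean in Cd11bDTR than in control libraries. It averaged 11.2 ± 7.14, 12.1 ± 2.71 and 8.27 ± 1.56 CPM in Cd11bDTR, Cx3cr1 Cx43-/- and control libraries (SD, n = 3 each). The pacemaker channel gene Hcn4, a defining marker, stood at 1.8 to 3.8 CPM in Cd11bDTR, 15.5 to 19.9 CPM in Cx3cr1 Cx43-/- and 15.5 to 19.3 CPM in control libraries, and the early nodal factor Isl1 stood near 0 in all 3 groups, averaging 0.0300 CPM in Cd11bDTR, 0.0833 CPM in Cx3cr1 Cx43-/- and 0.130 CPM in control libraries. In such bulk tissue, fewer cells of a type and less RNA per cell cannot be told apart.

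Inhba, Tgfb2 and Tgfb3 were called between Cd11bDTR and control nodes with no overlap of the groups. The 250 bases before the annotated start of Inhba and of Tgfb2, the 2 ligands whose transcripts were higher in Cd11bDTR nodes, are shown here because they were the only windows among the members that held the letters TATAAA. The sequences are RefSeq's on GRCm38.p6, whereas the submitters' processing notes name mm9, so the coordinates belong to the sequence only. RefSeq windows were found for 8 of the 10 members (9 windows, since Gdf15 has a pair), and there was no entry for Tgfb3 and Bmp2. Capitals mark TATAAA and, in Tgfb2, CACGTG.
Inhba, chr13:16011601-16011850, plus strand: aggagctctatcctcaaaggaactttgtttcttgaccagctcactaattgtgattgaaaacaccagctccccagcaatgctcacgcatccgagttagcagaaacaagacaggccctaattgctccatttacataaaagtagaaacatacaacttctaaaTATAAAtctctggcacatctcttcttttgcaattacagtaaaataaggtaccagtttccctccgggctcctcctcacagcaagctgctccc
Tgfb2, chr1:186705990-186706239, minus strand: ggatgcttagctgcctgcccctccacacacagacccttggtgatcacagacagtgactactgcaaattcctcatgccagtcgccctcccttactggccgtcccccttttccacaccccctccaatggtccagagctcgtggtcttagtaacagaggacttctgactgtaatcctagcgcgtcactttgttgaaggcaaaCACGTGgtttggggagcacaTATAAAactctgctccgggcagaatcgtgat

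Both windows were read 5′ to 3′ toward the start. In Tgfb2 the letters TATAAA began at position -31 and the E-box CACGTG at -51. In Inhba TATAAA began at -91. On either strand, TATAAA was present in 12.4% and CACGTG in 6.02% of all 32851 RefSeq mouse windows of this length. CACGTG was also found in windows of Bmp4, Bmp6 and Gdf15, and the TEAD letters GGAATG, present in 12.6% of windows, in Gdf15. The AP-1 letters TGACTCA (4.46% of windows) and the cAMP response element TGACGTCA (1.55%) were found in 0 of the member windows. These 5 motifs were searched on both strands, and a match describes letters and not a bound site. The Inhba window had 43.2% GC and the Tgfb2 window 53.6%, against a median of 52.4% over all windows.

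**Figure D1:**
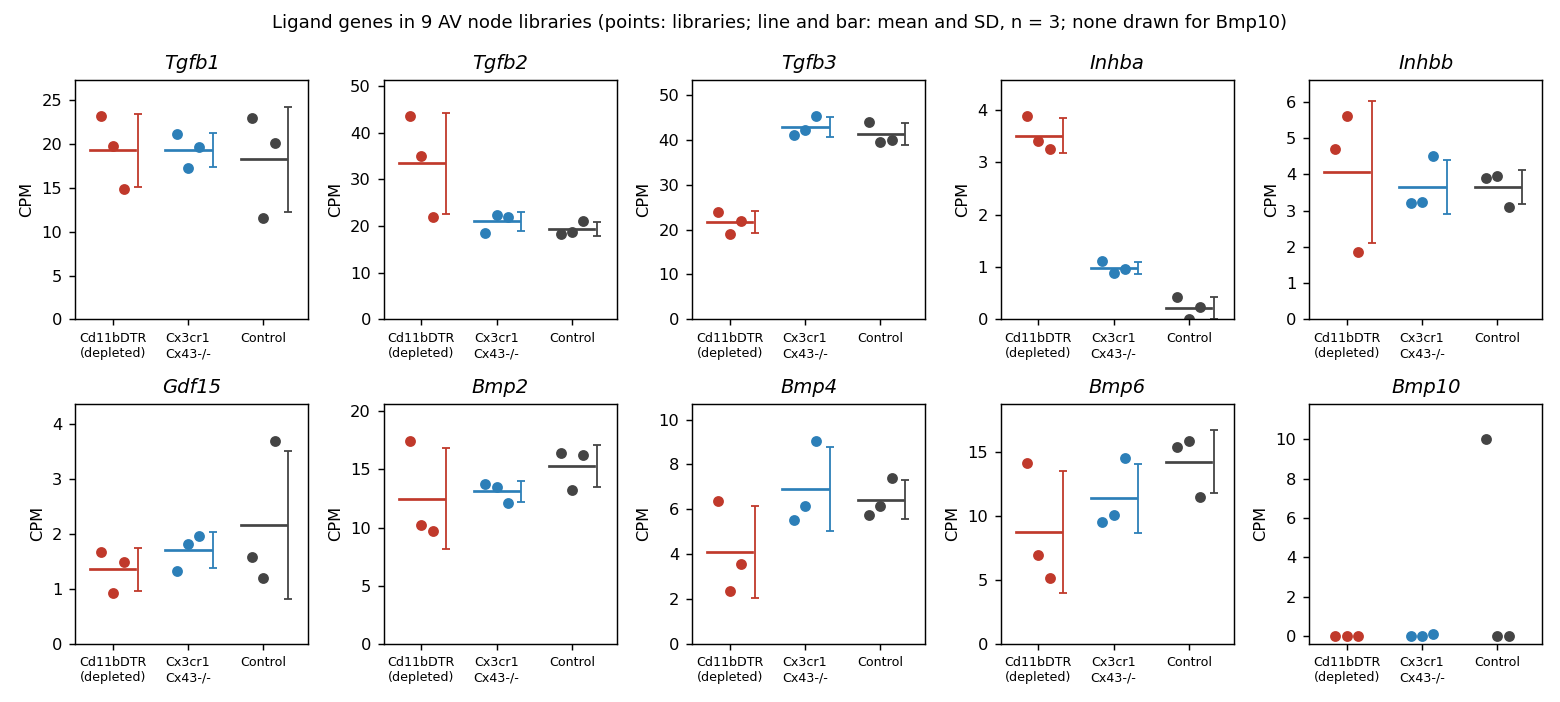
CPM of each ligand gene (y axis, linear, scaled per panel) in the 3 groups (x axis: Cd11bDTR, Cx3cr1 Cx43-/-, Control), with a point per library, a line at the mean and a bar of 1 SD (n = 3; none for Bmp10). Inhba and Tgfb3 are the panels where the 3 Cd11bDTR points stand clear of all 6 others, and the single high point of Bmp10 is control library 1.

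The first comparison asked what the ligand genes did in nodes depleted of macrophages, Cd11bDTR against control. Inhba, which encodes the beta A subunit of activin A, rose, Tgfb2 rose, Tgfb3 fell and Bmp6 fell, with the last call resting on overlapping groups. The other 5 ligands that were tested did not pass. Of 9 tested ligands, 2 were called higher and 2 lower in limma at an adjusted p under 0.05, where 36.2% of all 12925 tested genes were called (3.23% higher and 33% lower). The 4 calls among 9 ligands are thus close to the background for calls in any direction. Inhba, Tgfb2 and Tgfb3 (3 of 9) had groups that did not overlap, as had 41.6% of all tested genes, and 46.8% of all genes had an unadjusted p under 0.05. The median log2 change was -0.33 over the 9 ligands and -0.49 over all tested genes.

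Inhba had the widest difference of the ligands. It stood at 3.88, 3.4 and 3.25 CPM in Cd11bDTR libraries 7, 8 and 9, against 0.42, 0 and 0.23 CPM in control libraries 1, 2 and 3. These values rest on 225, 177 and 211 reads in the Cd11bDTR libraries and 26, 0 and 13 reads in the control libraries. A count of 0 in control library 2 allows up to 0.0558 CPM (3 reads, counting error only). That library had 15130 symbols above 0, against 18748 in control library 1 and 18005 in control library 3. A 0 in control library 2 may therefore stand for a higher level than this bound. The groups did not overlap, and the 3 Cd11bDTR libraries lay close together. The means were 3.51 ± 0.329 CPM in Cd11bDTR and 0.217 ± 0.210 CPM in control nodes (SD, n = 3 each), a ratio of 16.2. The ratio was 30.5 without control library 1 and 10.8 without control library 2. On the log2(CPM + 0.5) scale it changed by 2.53 (SE 0.40, 95% interval 1.70 to 3.35, limma adjusted p = 6.59e-05), a scale that understates the change of genes this low. Inhba entered the fit because 4 libraries reached 1 CPM, the 3 Cd11bDTR libraries and Cx3cr1 Cx43-/- library 4. It would not have entered without the Cd11bDTR libraries, where it was high, so the filter and the test are not independent. With no filter on low genes it was still called. Monocyte and neutrophil genes (6 listed) summed to 19.1 to 25.1 CPM in Cd11bDTR and to 4.60 to 9.17 CPM in control libraries, and their part in the Inhba result was not tested.

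Inhbb, which encodes the other activin beta subunit, was not called. It stood at 4.71, 5.60 and 1.86 CPM in Cd11bDTR and at 3.89, 3.96 and 3.11 CPM in control libraries. Library 9 was the lowest and library 8 the highest of these 6, so the control values lay inside the Cd11bDTR range. Its log2 difference was 0.029, with a 95% interval of -0.70 to 0.75 (limma adjusted p = 0.954). Within a library, the ratio of Inhba to Inhbb CPM was 0.607 to 1.75 in Cd11bDTR, 0.215 to 0.346 in Cx3cr1 Cx43-/- and 0 to 0.108 in control nodes, and these 3 ranges did not overlap.

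The 3 TGF-beta isoforms, which share receptors and differ in where they are made and how they are activated, went separate ways in Cd11bDTR nodes. Tgfb2 stood at 43.6, 34.9 and 22.0 CPM in Cd11bDTR libraries 7, 8 and 9, against 18.3, 18.7 and 21.0 CPM in control libraries. All 3 Cd11bDTR libraries were above all 3 control libraries, with library 9 close to the highest control. The means were 33.5 ± 10.9 CPM in Cd11bDTR and 19.3 ± 1.5 CPM in control nodes (SD, n = 3 each), a ratio of 1.73. On the log2 scale Tgfb2 rose by 0.73 (SE 0.24, limma adjusted p = 0.0215). It was no longer called without control library 1 (0.69, adjusted p = 0.0748), without library 7 (0.51, adjusted p = 0.0660), without library 8 (0.67, adjusted p = 0.0648), with no filter on low genes (adjusted p = 0.0639) and at a threshold of 0.01.

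Tgfb3 went the other way. It stood at 24.0, 19.0 and 21.9 CPM in Cd11bDTR libraries, against 44.0, 39.6 and 40.0 CPM in control libraries. The groups were far apart, with the highest Cd11bDTR library (24.0 CPM) well below the lowest control library (39.6 CPM). The means were 21.6 ± 2.48 CPM in Cd11bDTR and 41.2 ± 2.44 CPM in control nodes (SD, n = 3 each), a ratio of 0.525, and the log2 change was -0.92 (SE 0.20, limma adjusted p = 0.00145). Tgfb3 was called lower under all 21 alternative settings, with changes between -1.06 and -0.44. Summed fibroblast markers (6 genes, 1725 to 1891 CPM in Cd11bDTR and 2110 to 2326 CPM in control libraries) and valve markers (5 genes, 355 to 433 CPM in Cd11bDTR and 831 to 1245 CPM in control libraries) were also lower in Cd11bDTR nodes, and their part in the Tgfb3 result was not tested. In these CPM the typical tested gene was lower too, with a median log2 change of -0.49.

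Tgfb1, the isoform most studied in immune cells and platelets, stood at 23.2, 19.8 and 14.9 CPM in Cd11bDTR and at 23.0, 11.6 and 20.2 CPM in control libraries. The groups overlapped. Its log2 change was 0.11 with a 95% interval of -0.42 to 0.64 (limma adjusted p = 0.749). The resident macrophage sum given above was lower in every Cd11bDTR library. Summed CPM of 5 platelet genes was 8.70 to 10.6 in Cd11bDTR and 22.7 to 29.3 in control libraries. The part of either cell type in the Tgfb1 result was not tested. Of the platelet genes Pf4 alone had a lower mean, with 4.18 to 6.65 CPM in Cd11bDTR and 21.0 to 26.0 CPM in control libraries, while Itga2b, Gp1bb, Ppbp and Gp9 had higher means in Cd11bDTR, the highest 2.74 CPM for Itga2b. After median-of-ratios scaling Tgfb1 was called higher (0.59, adjusted p = 0.0295), and likewise after quantile normalization (0.55, adjusted p = 0.0387).

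**Figure D2:**
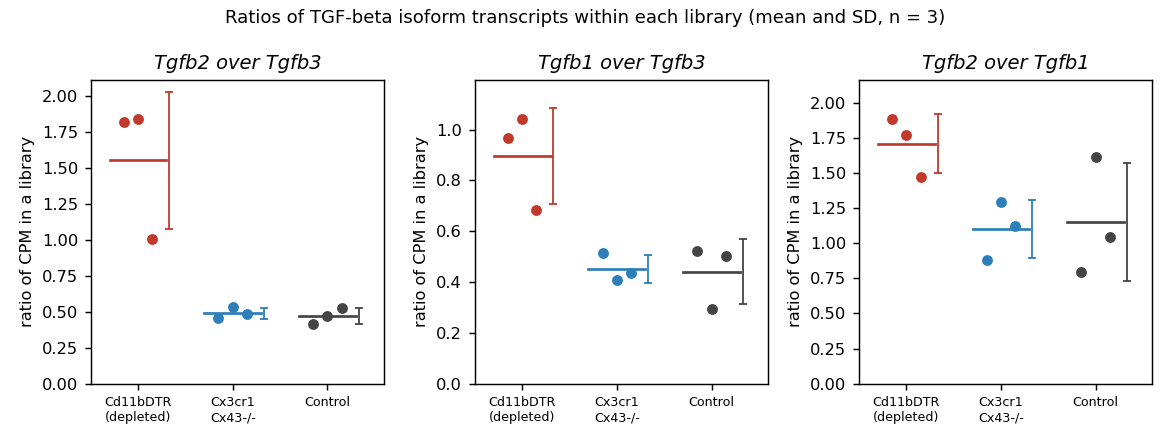
Ratios of the CPM of TGF-beta isoforms within a library (y axis) in the 3 groups (x axis), with a point per library and the mean with 1 SD (n = 3). The ratios of Tgfb2 to Tgfb3 and of Tgfb1 to Tgfb3 are higher in every Cd11bDTR library than in the 6 others, and the ratio of Tgfb2 to Tgfb1 overlaps between Cd11bDTR and control libraries.

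Ratios within a library do not depend on how the library was scaled. They were computed after the values had been seen and carry no test. The ratio of Tgfb2 to Tgfb3 was 1.82, 1.84 and 1.01 in Cd11bDTR, 0.454, 0.530 and 0.487 in Cx3cr1 Cx43-/- and 0.415, 0.472 and 0.526 in control libraries. In Cd11bDTR libraries 7 and 8 Tgfb2 was thus above Tgfb3 in CPM. In library 9 they were level (1428 and 1421 reads), and in every Cx3cr1 Cx43-/- and control library Tgfb2 was below Tgfb3. CPM is not corrected for gene length, so this gives no order of transcript levels. The ratio of Tgfb1 to Tgfb3 averaged 0.896 ± 0.189 in Cd11bDTR, 0.452 ± 0.0548 in Cx3cr1 Cx43-/- and 0.440 ± 0.128 in control libraries (SD, n = 3 each), again with every Cd11bDTR library (lowest 0.682) above every other (highest 0.523). The ratio of Tgfb2 to Tgfb1 was 1.47 to 1.88 in Cd11bDTR and 0.793 to 1.61 in control nodes, which overlap.

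Levels of different genes were compared as CPM per kilobase of exon. In Cd11bDTR nodes the 3 isoforms lay together, with Tgfb1 at 8.87 ± 1.90, Tgfb2 at 6.44 ± 2.09 and Tgfb3 at 6.39 ± 0.733 CPM per kilobase (SD, n = 3), all with overlapping ranges. Cx3cr1 Cx43-/- nodes had Tgfb3 at 12.7 ± 0.642, Tgfb1 at 8.89 ± 0.884 and Tgfb2 at 4.04 ± 0.398 CPM per kilobase, with no overlap. In control nodes the order was Tgfb3 at 12.2 ± 0.722, Tgfb1 at 8.39 ± 2.74, Bmp2 at 4.31 ± 0.508, Bmp6 at 3.98 ± 0.681, Tgfb2 at 3.72 ± 0.288, Bmp4 at 3.11 ± 0.422, Gdf15 at 1.16 ± 0.729, Inhbb at 0.859 ± 0.111 and Inhba at 0.0339 ± 0.0329 CPM per kilobase. Neighbours from Bmp2 to Bmp4 in that order overlapped, as did Gdf15 and Inhbb. Tgfb3, Tgfb1 and Inhba each stood apart from their neighbours. In Cd11bDTR nodes Inhba reached 0.549 ± 0.0515 CPM per kilobase, within the range of Inhbb (0.437 to 1.32) and of Gdf15 (0.497 to 0.902).

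Bmp2, Bmp4 and Bmp6, which signal through the BMP receptors, had lower means in Cd11bDTR than in control nodes, but only Bmp6 passed. Bmp6, a regulator of hepcidin in liver, stood at 14.2, 6.94 and 5.19 CPM in Cd11bDTR and at 15.5, 15.9 and 11.5 CPM in control libraries. Library 7 lay inside the control range and libraries 8 and 9 below it. The difference of -0.78 on the log2 scale (SE 0.30, limma adjusted p = 0.0473) missed the threshold in 15 of 21 alternatives, among them scaling every library to the same sum (-0.46, adjusted p = 0.176) and leaving out library 9 (-0.49, adjusted p = 0.220). Endothelial and endocardial markers (7 genes) summed to 149 to 253 CPM in Cd11bDTR and to 266 to 406 CPM in control libraries, and their part in the Bmp6 result was not tested.

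Bmp4 stood at 6.35, 2.36 and 3.57 CPM in Cd11bDTR and at 5.73, 6.14 and 7.40 CPM in control libraries. Library 7 again lay among the controls and the other two below them. Its log2 change was -0.68 (95% interval -1.35 to -0.011, limma adjusted p = 0.102), and without library 7 it was -1.01 (adjusted p = 0.0123). Bmp2, which in the embryo takes part in forming the AV canal, stood at 17.5, 10.2 and 9.72 CPM in Cd11bDTR and at 16.5, 13.2 and 16.3 CPM in control libraries. Its change of -0.33 did not pass (limma adjusted p = 0.305), it was -0.59 without library 7 (adjusted p = 0.0338), and it turned to 0.14 after median-of-ratios scaling and 0.15 after quantile normalization. Library 7 was thus the highest of the Cd11bDTR group for Bmp2, Bmp4 and Bmp6, and it held the largest share of listed genes in that group (44.0%). This was not particular to the BMPs. Library 7 was also the highest of that group for Tgfb1, Tgfb2, Tgfb3, Inhba and Gdf15, while for Inhbb library 8 was.

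Gdf15, a divergent member of the family that is induced by cell stress, stood at 1.67, 0.92 and 1.49 CPM in Cd11bDTR and at 1.58, 1.19 and 3.70 CPM in control libraries. Control library 3 was the highest, and the other five lay close together. The difference for Gdf15 was -0.42 on the log2 scale, with a 95% interval of -1.25 to 0.41 (limma adjusted p = 0.415). Of 10 stress genes listed as upstream of or moving with Gdf15, 4 rose and 1 fell, where 3.23% of all tested genes were called higher and 33% lower. Without library 2, 3 or 8 the list had 3 calls in all. Those that rose were Atf3 (log2 change 1.80), Egr1 (1.24), Cdkn1a (1.14) and Atf4 (0.73), all encoding transcription factors except Cdkn1a, a cell cycle inhibitor. Atf4 stood at 132, 86.9 and 56.6 CPM in Cd11bDTR and at 57.5, 47.5 and 51.6 CPM in control libraries, which overlap, and it was no longer called without library 2, 3, 7 or 8.

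Bmp10, which in the mouse heart is made by atrial muscle cells, was at 10 CPM (625 reads) in control library 1, at 0.12 CPM (7 reads) in Cx3cr1 Cx43-/- library 6 and at 0 in the other seven. It did not enter the fit and gives no comparison between groups. The atrial muscle marker sum was 7004 CPM in control library 1 and 7870 CPM in Cx3cr1 Cx43-/- library 4, where Bmp10 was at 0. By a rule chosen after the values were seen, Bmp10 was the only gene that reached 5 CPM in library 1 with at most 10% of that value in every other library. The same rule named 1 gene in library 8 and 0 in each of the other libraries.

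**Figure D3:**
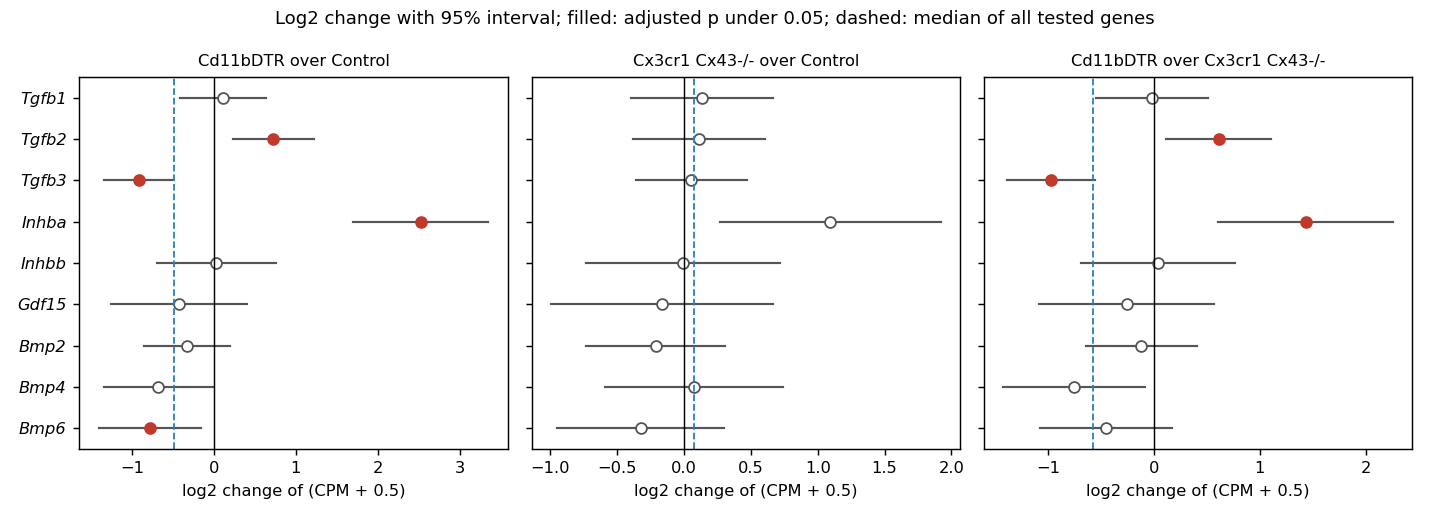
Log2 change of (CPM + 0.5) with its 95% interval (x axis) for the 9 tested ligands (y axis) in the 3 comparisons, filled where the adjusted p was under 0.05 and with a dashed line at the median of all tested genes. In Cd11bDTR against control, Inhba (2.53) and Tgfb2 (0.73) lie right of 0 and Tgfb3 (-0.92) and Bmp6 (-0.78) left of it, and no symbol is filled in Cx3cr1 Cx43-/- against control.

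The median change of all tested genes moved with the scaling, so the ligands were also read relative to it. For Cd11bDTR against control that median was -0.49 in the deposited CPM, -0.18 after rescaling to a common total, -0.035 after median-of-ratios scaling and -0.025 after quantile normalization. Calls over all genes were 417 higher and 4261 lower in the deposited CPM, 1136 and 2534 after rescaling to a common total, and 1685 and 1675 after median-of-ratios scaling. Relative to the median of all genes in the deposited CPM, Inhba was at 3.01, Tgfb2 at 1.21, Tgfb1 at 0.60, Inhbb at 0.51, Bmp2 at 0.16, Gdf15 at 0.064, Bmp4 at -0.19, Bmp6 at -0.29 and Tgfb3 at -0.43 on the log2 scale. Inhba and Tgfb2 stayed called higher and Tgfb3 called lower in each of these 4 scalings. With median-of-ratios scaling 3 ligands were called higher and 1 lower, where 13% of all genes were called in each direction.

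**Figure D4:**
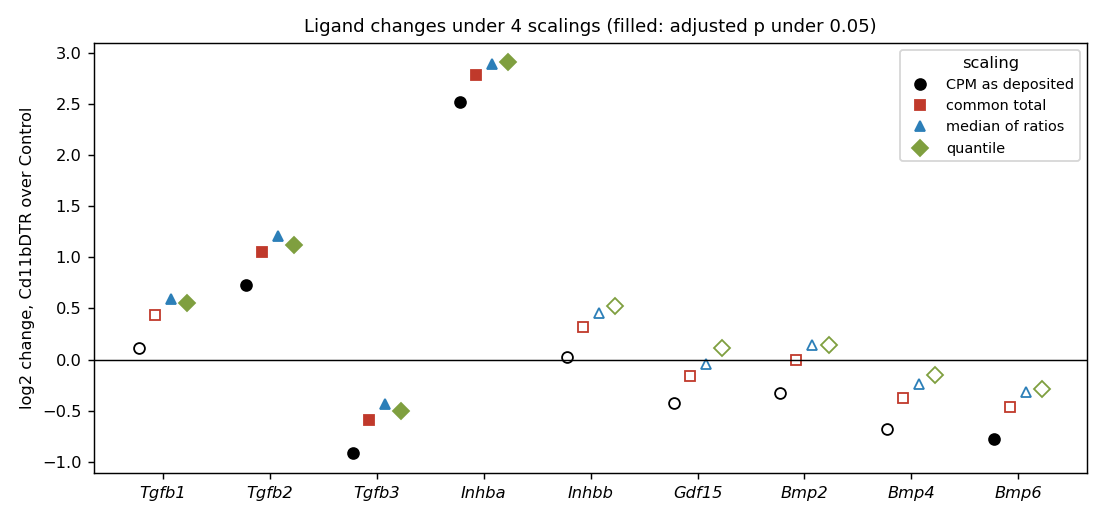
Log2 change of each tested ligand (x axis) in Cd11bDTR against control (y axis) under 4 scalings of the libraries, filled where the adjusted p was under 0.05. Inhba and Tgfb2 are filled above 0 and Tgfb3 below 0 under every scaling shown, Bmp6 is filled only for the deposited CPM, and Bmp2 crosses 0.

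The second comparison asked whether loss of connexin 43 in Cx3cr1-expressing cells went with a change in the ligands, Cx3cr1 Cx43-/- against control. Of 9 tested ligands, 0 were called by limma, where 0.00774% of all tested genes (1 gene) were called and 1.48% had an unadjusted p under 0.05. Inhba was the only ligand with an unadjusted p under 0.05. It stood at 1.11, 0.88 and 0.97 CPM in Cx3cr1 Cx43-/- libraries (67, 52 and 57 reads), against the 0.42, 0 and 0.23 CPM of control libraries. The groups did not overlap, as was so for 8.94% of all tested genes. The means were 0.987 ± 0.116 CPM in Cx3cr1 Cx43-/- and 0.217 ± 0.210 CPM in control nodes (SD, n = 3 each). This was a log2 change of 1.09 (SE 0.40, 95% interval 0.27 to 1.92, limma adjusted p = 1).

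None of the 3 TGF-beta isoforms passed in this comparison. Tgfb3 stood at 41.0, 42.2 and 45.2 CPM in Cx3cr1 Cx43-/- libraries, overlapping the control values, with a log2 change of 0.056 and a 95% interval of -0.36 to 0.47. Tgfb2 stood at 18.6, 22.4 and 22.0 CPM, with a change of 0.12 (-0.38 to 0.61). Tgfb1 stood at 21.1, 17.3 and 19.6 CPM, with a change of 0.13 (-0.40 to 0.66). These intervals bound what 3 libraries a group could show, and do not show that the groups are alike. For the BMPs and Gdf15 the log2 change was -0.21 for Bmp2 (-0.73 to 0.31), 0.076 for Bmp4 (-0.59 to 0.74), -0.32 for Bmp6 (-0.95 to 0.30) and -0.16 for Gdf15 (-0.99 to 0.66). Inhbb stood at 3.21, 3.23 and 4.51 CPM with a change of -0.0093 (-0.74 to 0.72). Bmp6 had its values at 9.58, 10.1 and 14.5 CPM and Bmp4 at 5.54, 6.13 and 9.06 CPM in Cx3cr1 Cx43-/- libraries, in both cases with library 6 the highest.

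The third comparison set Cd11bDTR nodes against Cx3cr1 Cx43-/- nodes. Both groups share their tissue and strain but differ in genotype as well as in whether macrophages were depleted, so these differences cannot be told apart. Of 9 tested ligands, 2 were called higher and 1 lower, where 43.4% of all tested genes were called (2.69% higher and 40.7% lower) and 52.9% had an unadjusted p under 0.05. Inhba and Tgfb3 (2 of 9) had groups that did not overlap, against 54% of all tested genes. The median log2 change was -0.12 over the ligands and -0.58 over all genes. Inhba averaged 3.51 ± 0.329 CPM in Cd11bDTR and 0.987 ± 0.116 CPM in Cx3cr1 Cx43-/- nodes with no overlap (ratio 3.56, log2 change 1.43, SE 0.40, limma adjusted p = 0.00707). Here too Inhba would not have entered the fit without the Cd11bDTR libraries, where it was high, so the filter and this call are not independent. Tgfb3 averaged 21.6 ± 2.48 CPM in Cd11bDTR and 42.8 ± 2.17 CPM in Cx3cr1 Cx43-/- nodes with no overlap (log2 change -0.98, SE 0.20, limma adjusted p = 0.000757), and after median-of-ratios scaling it missed the threshold (-0.42, adjusted p = 0.0537). Tgfb2 averaged 33.5 ± 10.9 CPM in Cd11bDTR and 21.0 ± 2.07 CPM in Cx3cr1 Cx43-/- nodes (log2 change 0.61, SE 0.24, limma adjusted p = 0.0423). Library 9 at 22.0 CPM lay within the Cx3cr1 Cx43-/- values, and the Tgfb2 call was lost in 9 of 21 alternatives, including without library 7 (0.40, adjusted p = 0.137). Bmp4 missed the threshold (-0.75, adjusted p = 0.0614), and without library 7 it was called lower (-1.09, adjusted p = 0.00721), as was Bmp6 (-0.85, adjusted p = 0.0135, against -0.45 and 0.221 with all libraries).

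The genes around the ligands were described by role, first in Cd11bDTR against control, where 3.23% of all tested genes were called higher and 33% lower with a median change of -0.49. After median-of-ratios scaling 13% of all tested genes were called in each direction. Of 23 other ligands of the superfamily 7 were tested, and 0 rose and 3 fell: Mstn (myostatin, log2 change -1.54), Gdf10 (-1.25) and Inha (the inhibin alpha subunit, -0.90). Mstn stood at 0, 0 and 0.38 CPM in Cd11bDTR and at 1.25, 1.69 and 0.92 CPM in control libraries. It entered the fit only through control and Cx3cr1 Cx43-/- libraries, where it was higher, so the filter and its call are not independent. Inha stood at 3.81, 4.32 and 1.66 CPM in Cd11bDTR and at 6.38, 7.05 and 5.13 CPM in control libraries, so the alpha subunit was lower where Inhba was higher. Inha was no longer called after any of the 3 other scalings (-0.62 to -0.40). Gdf10 likewise lost its call in all 3 (-0.96 to -0.73). Without library 1 Mstn alone of this list was called, and Inha was also lost without library 2, 3 or 9.

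Of 18 receptors and co-receptors 14 were tested, and 0 rose and 5 fell, with a median log2 change of -0.49, equal to that of all genes, of which 33% were called lower. The list had 3 calls without library 1, where Rgmb was lost, and 9 without library 7. The BMP co-receptors of the repulsive guidance family, Rgma (-1.40), Hfe2 (hemojuvelin, -0.92) and Rgmb (-0.82), all fell. Rgma stood at 19.6, 9.32 and 13.1 CPM in Cd11bDTR and at 38.4, 36.5 and 34.0 CPM in control libraries. Acvr1c, which encodes the type I receptor ALK7, was listed at 0 in all 3 Cd11bDTR libraries, against 0.94, 1.51 and 1.45 CPM in control libraries. It entered the fit only through control and Cx3cr1 Cx43-/- libraries at or above 1 CPM, so no p is given, and the list's median does not depend on its fitted change, the lowest of the list. The TGF-beta receptors Tgfbr1 (log2 change 0.13), Tgfbr2 (-0.014) and Tgfbr3 (-0.17) did not pass. After median-of-ratios scaling the counts of this list were 2 higher and 3 lower.

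Of 8 Smads 0 rose and 2 fell, with a median of -0.32, where 33% of all genes were called lower. Smad6, an inhibitor of BMP signalling (-1.45), and Smad9, a BMP effector (-1.88), were the 2 that fell. Smad9 stood at 2.52, 3.07 and 0.34 CPM in Cd11bDTR and at 8.37, 5.22 and 8.41 CPM in control libraries. Both kept their call under the 3 other scalings, with changes of -1.14 to -0.97 for Smad6 and -1.67 to -1.37 for Smad9. Of 11 BMP target genes, a list that holds these 2 Smads, 1 rose and 5 fell with a median of -0.33. Hey1, a repressor also downstream of Notch, fell (-1.42), and Hamp, the hepcidin gene, rose to 79.8, 61.5 and 46.5 CPM in Cd11bDTR, against 29.7, 37.6 and 19.6 CPM in control libraries (1.11). With median-of-ratios scaling 4 BMP target genes were called higher and 3 lower.

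Of 16 genes of latency and activation 1 rose and 8 fell, with a median of -0.57, where 3.23% of all genes were called higher and 33% lower with a median of -0.49. Fbn2, a microfibril protein that binds latent complexes and BMPs, stood at 0.69, 0.63 and 0.89 CPM in Cd11bDTR and at 5.63, 7.96 and 7.83 CPM in control libraries (log2 change -2.62). The integrin subunits of the TGF-beta-releasing integrins, Itgb6 (-2.12) and Itgb8 (-1.86), fell, as did the proprotein convertase Pcsk6 (-1.67). Itgb8 stood at 7.44, 3.63 and 5.39 CPM in Cd11bDTR and at 17.4, 25.6 and 19.2 CPM in control libraries. After median-of-ratios scaling 6 genes of this list were higher and 6 lower. Of 16 secreted antagonists and the pseudoreceptor, 9 were tested, of which 1 rose and 4 fell (median -0.52). Bmper, which binds BMPs outside the cell, rose (1.06) and stood at 18.2, 34.1 and 14.6 CPM in Cd11bDTR, against 12.2, 7.12 and 10.6 CPM in control libraries. Chrdl1 (-1.22), Dand5 (-0.96) and Twsg1 (-0.69) were among those that fell, and none of the 3 kept its call after median-of-ratios scaling, under which 2 antagonists were called higher and 0 lower. Bmper was no longer called without library 8, nor Dand5 without control library 3. The activin antagonist Fst, follistatin, did not pass (-0.24).

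Of 11 TGF-beta target genes 4 rose and 1 fell, with a median of 0.23. Of all tested genes, 3.23% were called higher and 33% lower, with a median of -0.49. Those that rose were Ctgf (3.18), Tgfbi (1.01), Postn (0.57) and Ltbp2 (0.56). Postn kept its call only without library 7 or 8 and Ltbp2 only without library 9, and the list's calls numbered 2 without library 1, 3, 4, 5 or 6 and 3 without library 2 or 8. Ctgf, which encodes a matricellular growth factor, stood at 1834, 1720 and 947 CPM in Cd11bDTR and at 148, 157 and 171 CPM in control libraries, with no overlap. Tgfbi, a matrix protein, stood at 126, 114 and 114 CPM in Cd11bDTR and at 66.0, 53.7 and 55.6 CPM in control libraries. With rescaling to a common total and with median-of-ratios scaling 6 of the 11 were called higher and 0 lower. The share of all genes called higher also grew, to 8.79% and 13% under these scalings, with 19.6% and 13% called lower. These genes are targets of other pathways too.

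**Figure D5:**
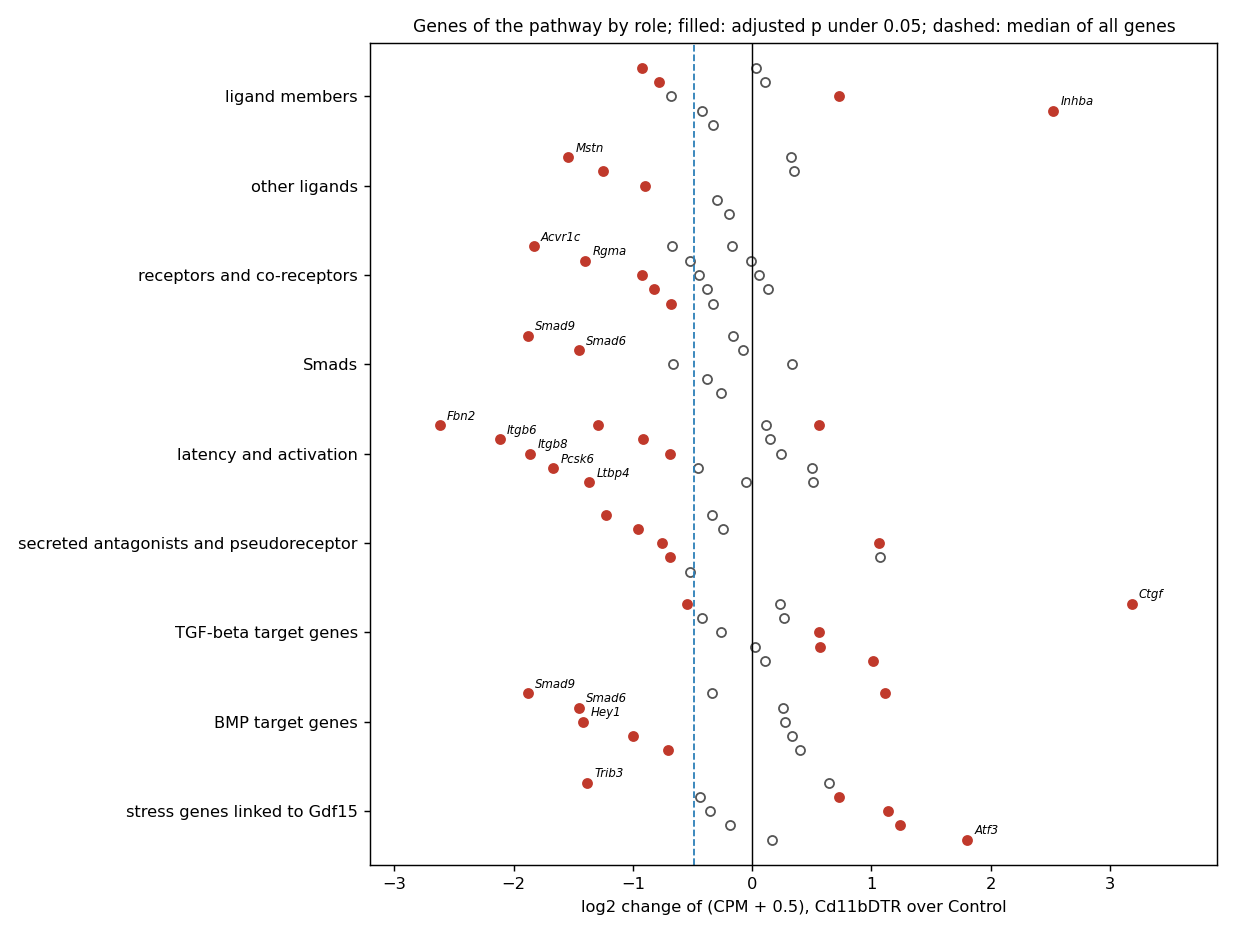
Log2 change of (CPM + 0.5) in Cd11bDTR against control (x axis) for each tested gene of the ligand list and of 8 lists by role (y axis), filled where the adjusted p was under 0.05, with a dashed line at the median of all tested genes (-0.49) and Acvr1c, at 0 in Cd11bDTR, at its fitted value. Filled symbols lie mostly left of 0 for receptors, Smads and latency genes, and mostly right of 0 for the TGF-beta target and stress genes.

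In Cx3cr1 Cx43-/- against control 0 genes of these 8 lists were called by limma, with list medians between -0.055 and 0.15. Unadjusted p-values under 0.05, which 1.48% of all tested genes had, were found in limma for Fbn1 (log2 change 0.71), Gdf10 (-1.11) and Postn (0.53). They were 0.00219 for Fbn1, 0.00723 for Gdf10 and 0.0183 for Postn. Fbn1, which encodes the microfibril protein fibrillin-1, averaged 127 ± 17.6 CPM in Cx3cr1 Cx43-/- and 77.6 ± 9.10 CPM in control libraries with no overlap (SD, n = 3 each, limma adjusted p = 1). In Cd11bDTR against Cx3cr1 Cx43-/- nodes the receptors had 0 higher and 8 lower of 14 tested, the latency genes 2 higher and 9 lower of 16, the Smads 0 higher and 3 lower of 8, and the TGF-beta target genes 3 higher and 2 lower of 11, where 2.69% of all genes were called higher and 40.7% lower. The TGF-beta target counts became 5 higher and 0 lower after rescaling to a common total and 6 higher and 0 lower after median-of-ratios scaling. Under these scalings 8.47% and 13.1% of all genes were called higher, and 20.9% and 12.9% lower. Bmper (1.04), Hamp (1.14) and Ctgf (3.29) rose and Fbn2 (-2.34), Itgb8 (-1.64) and Mstn (-1.78) fell in that comparison, with the Bmper call lost without library 8. Mstn again entered the fit only through the groups where it was higher. The collagen gene Col1a1, a TGF-beta target, was called lower there (-0.56, lost without library 3, 4, 5, 6 or 8) but stood at 0.0048 after median-of-ratios scaling. Among the receptors with the smallest p were again Hfe2 (-0.98), Rgma (-1.05) and Rgmb (-0.97), joined by the type I BMP receptor Bmpr1a (-0.81), and of these 4 Hfe2 alone kept its call after median-of-ratios scaling. Under that scaling 1 of the 14 receptors and 0 of the 9 antagonists were called lower in this comparison. The Smads that fell were Smad9 (-1.71), Smad6 (-1.08, lost without library 8) and Smad3 (-0.84, lost without library 5, 6 or 9), and after median-of-ratios scaling 1 Smad was called higher and 1 lower. Pcsk6 (-1.83) and the latent TGF-beta binding protein gene Ltbp4 (-1.44) fell among the latency genes. BMP targets had 2 higher and 5 lower of 11, which became 4 higher and 2 lower both after rescaling to a common total and after median-of-ratios scaling. Antagonists had 1 higher and 4 lower of 9, other ligands 0 higher and 2 lower of 7, and stress genes 3 higher and 1 lower of 10, with Atf3 at 1.97, Egr1 at 1.57 and Cdkn1a at 0.98. The stress counts became 5 higher and 0 lower under both scalings, as they did in Cd11bDTR against control. Of all genes, 8.47% (common total) and 13.1% (median-of-ratios) were then called higher against Cx3cr1 Cx43-/- nodes. Against control nodes these shares were 8.79% and 13%.

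The tested genes whose profile over the 9 libraries was most like that of a ligand were found by the root mean square difference of centred log2 values. For Inhba, whose values span 3.13 on that scale, they were Myc (0.304) and Tcf23 (0.313). For Tgfb2 they were Glul (0.116) and Slc39a14 (0.122), for Tgfb3 Arhgap29 (0.0560) and Hip1 (0.0702), and for Tgfb1 Erlec1 (0.107) and Dpagt1. Bmp2 was nearest to Popdc2 (0.10), Bmp4 to P2ry2 (0.119), Bmp6 to Rqcd1 (0.154), Inhbb to Art5 (0.0938) and Gdf15 to Grhl1 (0.203). The likeness is a description over libraries that share their groups and depths.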

How the data were processed

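RNA of 9 microdissected AV nodes or node pools was sequenced. The submitters' processing notes name the aligner STAR (2.3.0), the read counter HTSeq (0.6.0) and edgeR, with build mm9. The annotation and the strand setting are not given in the sources used here. The authors deposited CPM rounded to 2 decimals for 34198 symbols, of which 12054 were at 0 in all libraries. Every value lay within rounding of a whole number of reads, but of the low values only 15.7% to 54.1% came within 0.1 read, so no count model was fitted. Identical pairs of libraries numbered 0.

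Values were analysed as log2(CPM + 0.5) in limma 3.58.1 (R 4.3.3), with 1 linear model of all 9 libraries, trended empirical Bayes variance, two-sided moderated tests and Benjamini-Hochberg adjustment over all 12925 genes that had at least 1 CPM in at least 3 libraries. A gene was called at an adjusted p under 0.05. Of the ligands 9 entered and Bmp10 did not. An exact permutation test of 3 against 3 libraries cannot go below 0.1. Where nothing says that libraries came from separate mice, p-values measure only the spread between libraries. Exon lengths came from GENCODE M21. The members and lists were chosen with earlier results of these data known, and 1 gene of the TGF-beta target list is not reported here. Named were all ligands, up to 4 called genes per list with the smallest p, the nearest profiles, Gja1, Cx3cr1, Itgam and Hbegf, and AV node markers. Other genes, such as Tgfbr1 to Tgfbr3 and Fst, were named after their values were seen. On simulated data of 12925 genes with 200 changed by 1 or 2 on the log2 scale, 32.6% and 91.6% were recovered for Cd11bDTR against control with 4.78% false calls. The changed genes were drawn from those with a mean log2 value over 1, which leaves out Inhba. Noise was normal and independent between genes, far fewer genes changed than were called here, and no library was shifted as a whole. These rates therefore do not carry over to the real data.

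Settings tried beside these were pseudocounts of 0.1 and 2, no filter or a mean of at least 5 CPM, 3 other scalings, robust empirical Bayes, quality weights per library, fits restricted to a pair of groups, thresholds of 0.01 and 0.1, and each library left out. Motifs were searched in 250 bases before the RefSeq start.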

Additional observations from a re-analysis of the deposited data

How the results depend on the processing

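Inhba (20 alternatives, since the filter at a mean of 5 CPM removed it) and Tgfb3 (21) kept their calls in Cd11bDTR against control. Tgfb2 lost its call there in 5 of 21 alternatives and Bmp6 in 15 of 21. No paired analysis was possible because the groups share no replicate number. Counts over all genes and over ligands moved by over 1.5 times as follows. In Cd11bDTR against control, at a threshold of 0.01, 2509 genes and 2 ligands were called, and with no filter 2 ligands. In Cx3cr1 Cx43-/- against control the gene count was 0 with a pseudocount of 0.1, with no filter and at 0.01, 2 with a pseudocount of 2 and 4 with quality weights. In Cd11bDTR against Cx3cr1 Cx43-/- it was 3362 with median-of-ratios scaling, 3356 with quantile normalization and 3156 at 0.01, and 5 ligands were called with quality weights. Leaving out a library gave 2667 (without library 1) to 6241 genes and 2 (without library 1 or 8) to 5 ligands for Cd11bDTR against control, 3284 (without library 5) to 7036 genes and 2 to 4 ligands for Cd11bDTR against Cx3cr1 Cx43-/-, and 0 to 2 genes and 0 ligands for Cx3cr1 Cx43-/- against control. Of the lists by role, leaving out a library moved calls in Cd11bDTR against Cx3cr1 Cx43-/- to 4 for receptors (without library 5 or 6) and 5 (without 8 or 9), to 1 for other ligands (without 3, 4, 5, 6 or 9), to 2 for antagonists (without 5 or 6) and 3 (without 3, 4, 8 or 9), and to 2 for TGF-beta targets (without 5) and 3 (without 3, 4, 6 or 8).

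The sign turned for genes that were not called in the deposited CPM, and for Col1a1, called lower in Cd11bDTR against Cx3cr1 Cx43-/- (median-of-ratios 0.0048), and the cause was not tested. In Cd11bDTR against control these were Gdf15 (quantile 0.11), Bmp2 (median-of-ratios 0.14, quantile 0.15) and Itgam (quality weights -0.59). In Cx3cr1 Cx43-/- against control they were Tgfb3 (median-of-ratios -0.021), Bmp4 (quantile -0.0075) and, with quality weights, Inhbb (0.041), Gdf15 (0.11) and Hbegf (0.011). In Cd11bDTR against Cx3cr1 Cx43-/-, under a common total, median-of-ratios and quantile in that order, they were Tgfb1 (0.36, 0.53, 0.49, and 0.039 with quality weights), Gdf15 (0.036, 0.17, 0.42) and Bmp2 (0.25, 0.43, 0.44), and Bmp6 under the last 2 (0.082, 0.11). Tgfb1 was called higher there with median-of-ratios scaling (limma adjusted p = 0.0460). Leaving out a library gave these ranges of log2 change. For Cd11bDTR against control they were -0.18 to 0.30 for Tgfb1, -0.24 to 0.45 for Inhbb and -0.28 to 0.87 for Itgam. For Cx3cr1 Cx43-/- against control they were -0.16 to 0.32 for Tgfb1, -0.15 to 0.064 for Inhbb, -0.43 to 0.22 for Gdf15, -0.12 to 0.21 for Bmp4 and -0.069 to 0.23 for Gja1. For Cd11bDTR against Cx3cr1 Cx43-/- they were -0.16 to 0.15 for Tgfb1, -0.23 to 0.46 for Inhbb and -0.38 to 0.028 for Bmp2. Depth limits Inhba in control nodes, where it rests on 0 to 26 reads.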
